A study of Mus musculus with 8 samples.

Results

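C1qa, C1qb, C1qc, C2, C3, C3ar1, C5ar1, C6 and Cfp are 9 genes of the complement system, and their expression was followed across the cell types of the liver in control mice and in NASH mice with fibrosis. They were taken by gene symbol from a count table of 55450 genes, and each symbol matched 1 gene. The genes were chosen with earlier results of these data known. A further 46 genes of complement activators, regulators and receptors were examined as the rest of the pathway.

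The libraries came from the livers of 8 mice, all labelled as wild type and described in the methods as C57BL/6. There were 2 control mice on normal diet and drinking water. NASH mice were given fructose solution and intraperitoneal carbon tetrachloride with either a high-fat diet (HFD+F+CCl4, 3 mice) or a western diet (WD+F+CCl4, 3 mice), so diet, fructose and toxin were always combined and their effects cannot be told apart. Neither age nor sex is given in the sources used here. Livers were dissociated with enzymes and dead cells were removed on beads, and cells were captured on the 10x Chromium 3' platform, where every captured mRNA carries a molecular barcode (UMI) that lets copies of it be counted once.

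Complement is a cascade of blood proteins that marks microbes, dying cells and debris for removal. C1qa, C1qb and C1qc encode the chains of C1q, the recognition molecule of the classical pathway, and tissue macrophages are its main known source. C2 encodes the protease that joins C4b in the classical C3 convertase, C3 the central component on which the pathways converge, and Cfp properdin, which stabilises the convertase of the alternative pathway. C3ar1 and C5ar1 encode the receptors of the anaphylatoxins C3a and C5a, small fragments that recruit and activate myeloid cells, and C6 encodes a component of the membrane attack complex. Hepatocytes are the textbook source of most complement proteins in plasma, whereas C1q and properdin are made largely by myeloid cells.

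The C1q chains lay side by side on chromosome 4 of GRCm38, all on the minus strand, at chr4:136880129-136886187 (C1qb), chr4:136889804-136893065 (C1qc) and chr4:136895917-136898803 (C1qa). The cluster spanned 18675 bases, with 3616 bases between C1qb and C1qc and 2851 bases between C1qc and C1qa, and held no other annotated gene. C3ar1 lay at chr6:122847138-122856161, C5ar1 at chr7:16246743-16259540, Cfp at chrX:20925454-20931555 and C3 at chr17:57203970-57228136, each on the minus strand, and C6 at chr15:4727175-4814967 on the plus strand. C2, at chr17:34862604-34898265 on the minus strand, overlapped Gm20547 on the same strand and Zbtb12 on the other, and its counts are uncertain for that reason. C3 overlapped the microRNA gene Mir6978.

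Promoter sequences are shown for C1qb, C1qc and C3ar1, which were high in the same cell types. They are from RefSeq (GRCm38.p6), run 5' to 3' on the minus strand from 250 bases before to 50 bases after the start that RefSeq gives the gene, which differs from the gene end given above, and carry in capitals the matches to 4 short motifs searched on both strands. These were the PU.1-type ETS motif GAGGAA, the MAF half-site TGCTGA, the AP-1 motif TGANTCA and the interferon response motif (GAAA and GAAA with 2 bases between), and no matches overlapped.
C1qb, chr4:136886151-136886450: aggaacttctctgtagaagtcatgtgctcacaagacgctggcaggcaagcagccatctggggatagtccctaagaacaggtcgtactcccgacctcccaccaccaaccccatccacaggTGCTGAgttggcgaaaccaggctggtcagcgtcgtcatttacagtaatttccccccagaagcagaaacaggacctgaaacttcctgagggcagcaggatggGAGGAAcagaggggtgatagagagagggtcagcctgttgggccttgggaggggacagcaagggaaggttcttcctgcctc
C1qc, chr4:136892865-136893164: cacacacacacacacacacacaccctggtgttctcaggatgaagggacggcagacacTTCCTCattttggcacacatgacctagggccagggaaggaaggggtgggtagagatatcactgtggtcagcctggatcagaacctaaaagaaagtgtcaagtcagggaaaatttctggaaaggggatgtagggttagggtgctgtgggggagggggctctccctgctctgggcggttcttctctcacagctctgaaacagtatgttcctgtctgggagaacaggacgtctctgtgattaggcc
C3ar1, chr6:122856108-122856407: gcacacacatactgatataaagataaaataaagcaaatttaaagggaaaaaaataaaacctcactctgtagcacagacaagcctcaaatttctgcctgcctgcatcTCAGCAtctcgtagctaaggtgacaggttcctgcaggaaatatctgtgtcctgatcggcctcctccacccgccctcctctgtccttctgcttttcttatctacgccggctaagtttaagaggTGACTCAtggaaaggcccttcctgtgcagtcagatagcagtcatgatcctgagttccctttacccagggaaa
The window of C1qb held 1 PU.1-type match and 1 MAF half-site, that of C1qc 1 PU.1-type match, and that of C3ar1 1 MAF half-site and 1 AP-1 match. Among the others, Cfp had 2 PU.1-type matches, C3 and C5ar1 had 1 MAF half-site each and C6 had none. Of 32851 promoters of the same length, 28.3% held the PU.1-type motif, 19.5% the MAF half-site, 7.81% the AP-1 motif and 3.44% the interferon response motif, so these letters were common. Promoters of C1qa and C2 were not used here.

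After removal of barcodes with 500 or fewer genes or with 25% or more mitochondrial UMIs, 80474 of 88581 barcodes were kept, between 4168 and 11999 per mouse. Control replicate 2 stood apart, with 6135827 UMIs in the library and a median of 992.5 UMIs per cell, against up to 64855024 UMIs per library and medians of 3159 to 4278 in NASH mice. Of the 79739 barcode sequences among kept cells, 732 (0.918%) occurred in more than 1 library. Cells were clustered without the complement genes, which gave 28 clusters, and those that could be named from marker genes fell into 16 types, each to be read as macrophage-like, monocyte-like and so on, with the suffix left out from here. Monocytes, macrophages, Kupffer cells and dendritic cells (DC) formed the monocyte-macrophage-DC (MMD) system. The clusters named as macrophages were led by Pf4, Ms4a7 and Gpnmb in 1 cluster and by Il1rn, Gpr84 and Acod1 in another. A further macrophage cluster and a cluster of patrolling monocytes were led by stress genes such as Hspa1a and Fosb and came mainly from HFD+F+CCl4 replicate 1.

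Controls held few of the cells in which these genes were high. Macrophages numbered 70 and 33 in the control mice and between 2064 and 3313 in each NASH mouse, and Kupffer cells 5 and 0 in the control mice and between 8 and 661 in NASH mice. Macrophages were 6.26% and 4.50% of MMD cells in the control mice and between 26.6% and 42.4% in NASH mice, whereas plasmacytoid DC were 34.6% and 37.0% in the control mice and at most 6.28% in NASH mice. The summed level of 6 Kupffer cell markers in all cells was 31.7 and 60.5 CPM in the control mice and between 76.9 and 1902 CPM in NASH mice. Here and throughout, CPM (counts per 1000000) are the UMIs of a gene scaled to the total UMIs of the same cells of the same mouse, and they are compared within a gene, not between genes. In a level summed over many types, fewer cells of a type and less RNA per cell cannot be told apart. The study describes Kupffer cells as most of the macrophages of healthy liver. Control levels here therefore describe the captured cells and are no measure of healthy liver.

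Values are listed in the order of the replicate numbers, and a type entered with at least 20 cells in a mouse. T and NK cells, lymphocytes that are not a known source of C1q, served for all 9 genes as the reference for RNA that droplets pick up from the suspension. No expression was read from a level at or below theirs in the same mouse. The reference is rough, since CPM of such RNA depend on the UMIs of the cell itself. In the largest cluster of each type in a finer clustering, median UMIs were 2378 (T and NK cells), 5487 (classical monocytes), 5464 (DC) and 1236 (neutrophils). A lower level is thus no evidence that a gene was silent, and a slightly higher level none of expression.

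C1q expression was highest in Kupffer cells and macrophages. In Kupffer cells, the resident macrophages of the liver, C1qa reached 5178, 4635 and 4974 CPM in the 3 HFD+F+CCl4 mice and 4633 and 4616 CPM in WD+F+CCl4 replicates 2 and 3. These 5 levels lay close together. In macrophages C1qa reached 3086, 1812 and 2152 CPM in HFD+F+CCl4 mice and 1043, 1861 and 2786 CPM in WD+F+CCl4 mice, every one below the Kupffer cells, and the highest mouse of each group was the one with the most C1q overall. Cycling MMD cells came next, with a lowest, median and highest C1qa of 289.6, 859.8 and 2255 CPM over the 6 NASH mice, a range that overlapped that of macrophages. C1qb and C1qc had the same first 3 types, with medians in Kupffer cells, macrophages and cycling MMD cells of 4264, 2858 and 1166 CPM for C1qb and of 4165, 1681 and 742 CPM for C1qc. C1qb of macrophages (2216 to 3964 CPM) overlapped that of Kupffer cells (3273 to 4492 CPM), whereas C1qc of macrophages (972 to 2518 CPM) did not overlap that of Kupffer cells (3498 to 4387 CPM).

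**Figure D1:**
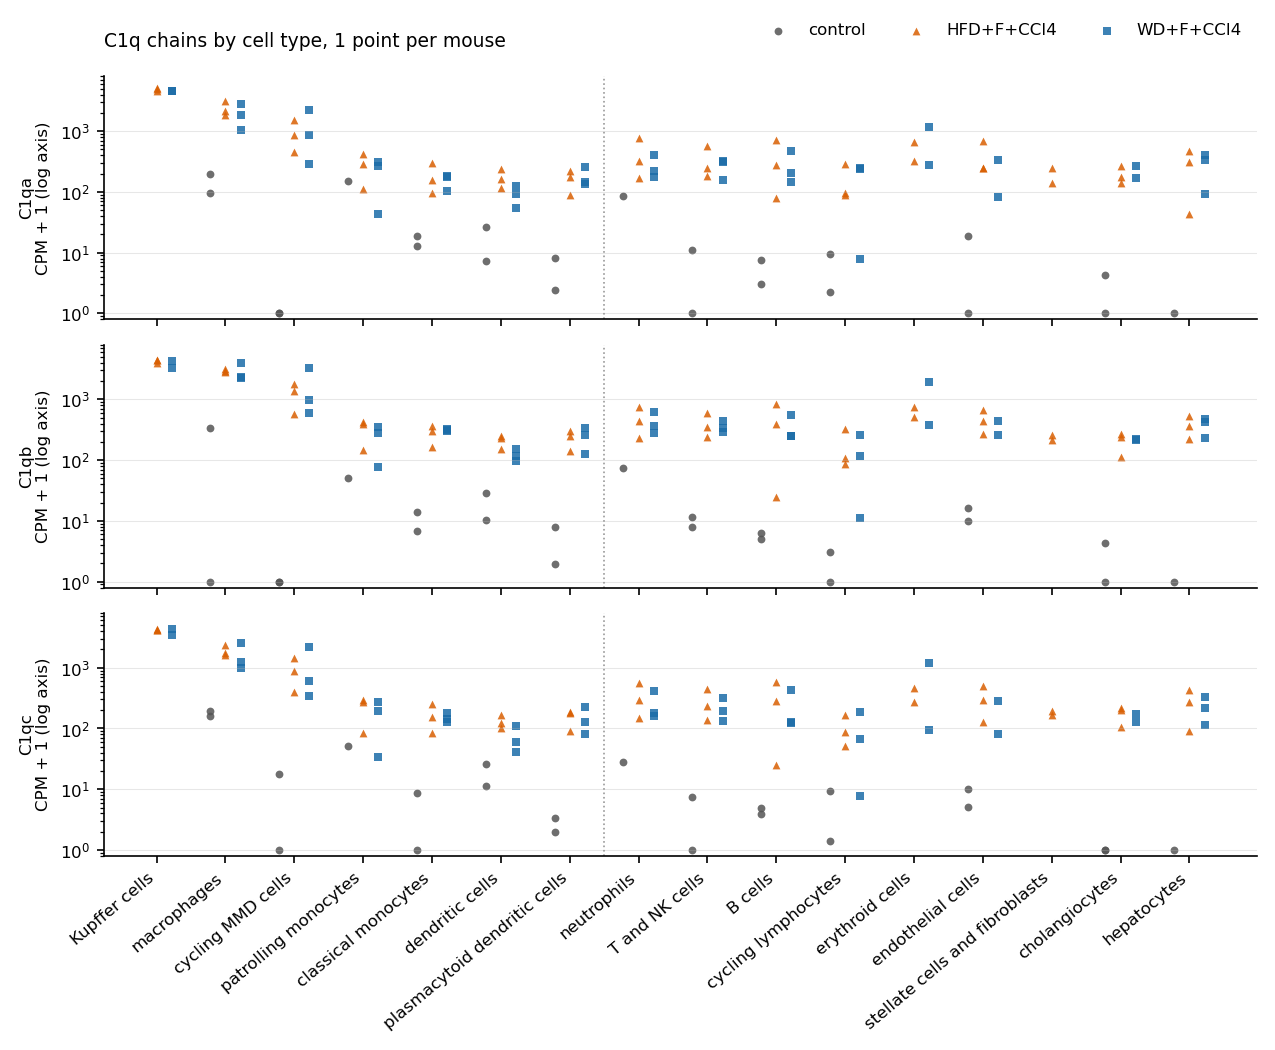
CPM of C1qa, C1qb and C1qc with 1 CPM added, on a log axis, in each named cell type, with 1 point per mouse that had at least 20 cells of the type; MMD types are left of the dotted line. Kupffer cells, macrophages and cycling MMD cells led in NASH mice, and most points of the other types lay in a lower band that included T and NK cells.

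Outside these 3 types most levels of the C1q chains lay in a low band shared by cells with no known C1q synthesis. In T and NK cells C1qa was 575.6, 246.5 and 178.6 CPM in HFD+F+CCl4 mice and 153, 318 and 311 CPM in WD+F+CCl4 mice, against 9.97 and 0 CPM in the control mice, where the 0 allows up to 10.6 CPM at 3 UMIs. Within the same NASH mouse, C1qa was 9.0 to 27.8 times the T and NK level in Kupffer cells, 5.36 to 12.1 times in macrophages and 1.89 to 7.25 times in cycling MMD cells, and above it in every mouse. It was 0.515 to 0.669 times that level in classical monocytes, 0.283 to 0.898 times in DC and 0.388 to 0.934 times in plasmacytoid DC, and in none of these did a mouse exceed T and NK cells. Patrolling monocytes exceeded it in 1 of 6 mice. Neutrophils did so in 4 of 6 mice, with 0.685 to 1.36 times the level, and erythroid cells in 3 of 4 mice, with 0.873 to 3.82 times. Erythroid cells of HFD+F+CCl4 replicate 3 (651 CPM) were above cycling MMD cells of that mouse (449 CPM). Those of WD+F+CCl4 replicate 3 (1188 CPM) were below them (2255 CPM). Endothelial cells had 0.253 to 1.36 times the T and NK level. C1qb and C1qc did not exceed it in any mouse in DC and plasmacytoid DC, and C1qb did so in classical monocytes of 1 mouse, by 1.1 times. No C1q expression was therefore read from classical monocytes, DC and plasmacytoid DC of NASH mice, and the source of their C1q UMIs was not tested. In control replicate 1, C1qa was above T and NK cells in macrophages (198.5 CPM, 19.9 times) and patrolling monocytes (149.6 CPM, 15.0 times). It was also above them in neutrophils (83.7 CPM, 34 UMIs), DC (25.2 CPM, 41 UMIs), endothelial cells (18.1 CPM) and classical monocytes (19 UMIs). Patrolling monocytes were 2.41% of the MMD cells of that mouse, so their level rests on few UMIs.

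The proportion of the chains differed little between macrophages and T and NK cells of the same mouse. The ratio of C1qb to C1qa UMIs in macrophages was 1.04, 1.61 and 1.30 in HFD+F+CCl4 mice and 2.13, 1.26 and 1.42 in WD+F+CCl4 mice, and in T and NK cells it was 1.04, 1.44 and 1.34, and 1.90, 1.07 and 1.43. The ratio thus varied more from mouse to mouse than between these types. Kupffer cells had lower ratios, 0.707 to 0.969 over 5 mice. In classical monocytes the ratio was 1.25, 1.93 and 1.76, and 3.13, 1.74 and 1.74, above both macrophages and T and NK cells of the same mouse in 6 of 6 mice.

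**Figure D2:**
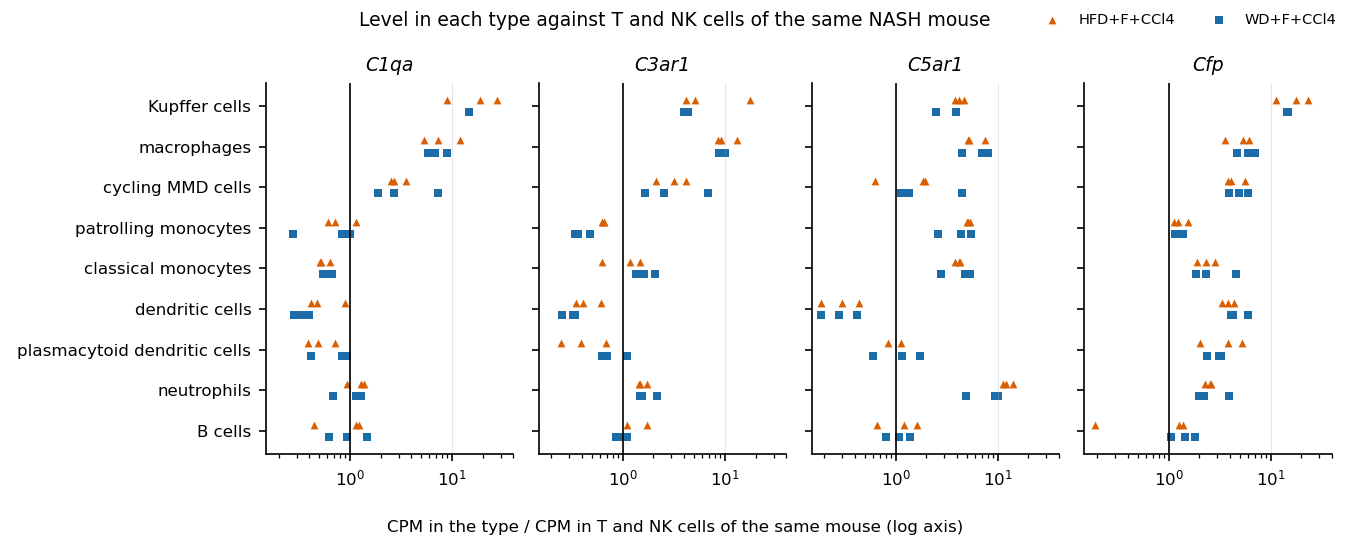
CPM of C1qa, C3ar1, C5ar1 and Cfp in each type divided by CPM in T and NK cells of the same NASH mouse, on a log axis, with 1 point per mouse; the vertical line marks equal levels. C1qa and C3ar1 stood above the line in macrophages and Kupffer cells, C5ar1 also in neutrophils and both kinds of monocytes, and Cfp also in dendritic cells.

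Cells with all 3 chains were the rule in macrophages of NASH mice. At least 1 UMI of each chain was found in 84.5%, 72.5% and 66.6% of macrophages of HFD+F+CCl4 mice and in 53.7%, 66.9% and 83.9% of those of WD+F+CCl4 mice. In the control mice it was 12.9% of 70 cells and 0 of 33, which allows a share of up to 9.09% of cells with such UMIs at the depth of that library, and in T and NK cells of NASH mice 3.49% to 17.6%. Median depth was 5099 to 6699 UMIs per macrophage and 2084.5 to 2936 UMIs per T or NK cell. With every cell thinned to 500 UMIs, C1qa was still found in 64.7%, 47.6% and 47.5% of macrophages of HFD+F+CCl4 mice and 29.1%, 45.4% and 61.5% of those of WD+F+CCl4 mice. The thinned share in T and NK cells was between 2.55% and 18.8%, and was highest in HFD+F+CCl4 replicate 1, the mouse with the most C1qa.

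The comparisons with control mice were made on UMIs summed per mouse with edgeR, with p-values adjusted over all genes tested, and measure the spread between mice. Both models were set against the same 2 control mice. Over all kept cells, C1qa was 15.3 and 11.7 CPM in the control mice, 1771, 985 and 707 CPM in HFD+F+CCl4 mice and 365, 719 and 1579.8 CPM in WD+F+CCl4 mice. All 6 NASH mice lay far above both controls, and the models overlapped. The control levels are those of libraries with almost no Kupffer cells. C1qa rose by a log2 fold change of 6.46 ± 0.78 (SE, adjusted p = 0.0027) in HFD+F+CCl4 mice and of 6.17 ± 0.77 (adjusted p = 0.0024) in WD+F+CCl4 mice. C1qb was 15.8 and 10.9 CPM in the control mice against 1772, 1488 and 916 CPM and 789.7, 890.0 and 2031 CPM, with log2 fold changes of 6.75 ± 0.62 (adjusted p = 0.0012) and 6.65 ± 0.61 (adjusted p = 0.0011). C1qc was 7.73 and 13.9 CPM against 1358, 957 and 536 CPM and 351, 488 and 1460.2 CPM, with log2 fold changes of 6.59 ± 0.81 (adjusted p = 0.0028) and 6.36 ± 0.80 (adjusted p = 0.0025). For the 3 chains no NASH mouse overlapped a control mouse.

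Within the MMD system the C1q chains rose by similar amounts. C1qa of MMD cells was 34.3 and 12.5 CPM in the control mice, 2205, 1199 and 862 CPM in HFD+F+CCl4 mice and 460.4, 847 and 2069 CPM in WD+F+CCl4 mice, again without overlap. The log2 fold changes were 5.87 ± 0.85 (adjusted p = 0.0032) and 5.60 ± 0.84 (adjusted p = 0.003) for C1qa, 6.10 ± 0.81 and 6.03 ± 0.80 for C1qb, and 6.06 ± 0.82 and 5.87 ± 0.81 for C1qc. Of the 9 genes, 6 were higher and none was lower in each model, over all cells and within the MMD system, namely the 3 C1q chains, C3ar1, C5ar1 and Cfp. Among all genes tested, 18.9% (HFD+F+CCl4) and 21.4% (WD+F+CCl4) were called over all cells and 16.8% and 21.6% within the MMD system. The C1q chains, C3ar1 and C5ar1 were called in both models with each mouse left out in turn, and the counts of 6 were the same without the 2 stress-led clusters.

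**Figure D3:**
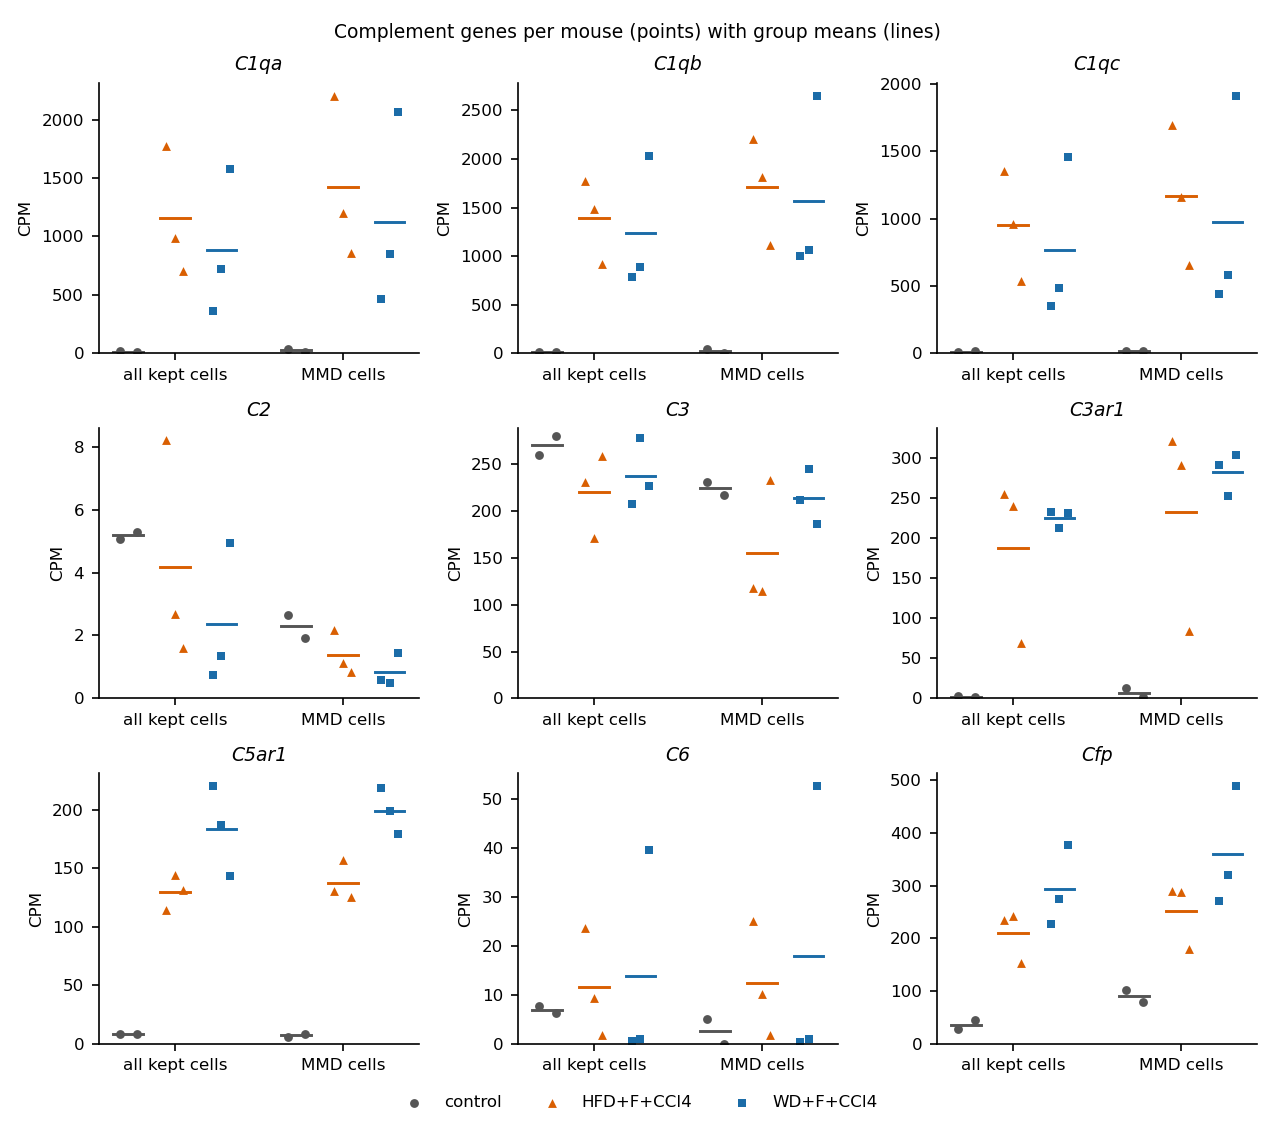
CPM of the 9 genes in all kept cells and in MMD cells, with 1 point per mouse and a line at the mean of each group. For the C1q chains, C3ar1, C5ar1 and Cfp all 6 NASH mice exceeded both controls, whereas for C2, C3 and C6 the range of the NASH mice overlapped that of the control mice.

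The anaphylatoxin receptors rose as well. C3ar1 over all cells was 3.27 and 1.32 CPM in the control mice, 255, 239.9 and 69.4 CPM in HFD+F+CCl4 mice and 232.5, 212 and 232 CPM in WD+F+CCl4 mice, with HFD+F+CCl4 replicate 3 the lowest NASH mouse. Its log2 fold changes were 6.22 ± 0.70 (adjusted p = 0.0021) and 6.59 ± 0.71 (adjusted p = 0.0015), and within the MMD system 4.72 ± 0.70 (adjusted p = 0.0036) and 5.07 ± 0.71 (adjusted p = 0.0024). C3ar1 is among the marker genes that the study displays for one of its monocyte subsets from these mice, so its direction is not independent of that choice. C5ar1 over all cells was 8.01 and 7.92 CPM in the control mice, 114, 144 and 131 CPM in HFD+F+CCl4 mice and 220.2, 187 and 143 CPM in WD+F+CCl4 mice. The models overlapped, and every NASH mouse was far above both controls. Within the MMD system C5ar1 had the smallest error of the 9 genes, with log2 fold changes of 4.52 ± 0.24 (adjusted p = 0.00014) and 5.09 ± 0.24 (adjusted p = 5.7e-05).

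Both receptors were high in different cells. C3ar1 was highest in macrophages, with a lowest, median and highest of 216, 526 and 619 CPM over NASH mice, above Kupffer cells (230.3 to 304.5 CPM) in every NASH mouse with both types except HFD+F+CCl4 replicate 3. Relative to T and NK cells of the same NASH mouse, C3ar1 was 8.5 to 13.1 times as high in macrophages, 3.96 to 17.6 times in Kupffer cells and 1.44 to 2.17 times in neutrophils. Classical monocytes exceeded T and NK cells in 5 of 6 NASH mice, and patrolling monocytes and DC in none. In control replicate 1 C3ar1 was 55.1 times the T and NK level in macrophages and 60.2 times in patrolling monocytes. T and NK cells of that mouse held 18 C3ar1 UMIs, and its patrolling monocytes, 2.41% of its MMD cells, held few. C5ar1 was highest in neutrophils, with 438 CPM in control replicate 1 and between 319 and 427 CPM in NASH mice. Macrophages (155 to 319 CPM), patrolling monocytes (149 to 193 CPM), classical monocytes (115.5 to 234 CPM) and Kupffer cells (123 to 178 CPM) followed with overlapping ranges. In all 5 of these types C5ar1 exceeded T and NK cells in every NASH mouse with at least 20 cells, by 2.5 to 14.2 times. In DC it was 0.185 to 0.433 times the T and NK level, and no expression was read from it.

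In classical monocytes, the Ly6c2-expressing cells that come from blood, C5ar1 was 9.46 and 17.8 CPM in the control mice, 115.5, 132 and 146 CPM in HFD+F+CCl4 mice and 234, 199 and 150.8 CPM in WD+F+CCl4 mice. This type had 362 and 155 cells in the control mice, and no NASH mouse overlapped them. C5ar1 rose there by log2 fold changes of 3.62 ± 0.35 (adjusted p = 0.0005) and 4.18 ± 0.35 (adjusted p = 0.00012). Without control replicate 1 the first had an adjusted p of 0.0698. In T and NK cells of the same mice C5ar1 was 1.92 and 7.09 CPM in the control mice and between 30.1 and 71.2 CPM in NASH mice. Classical monocytes had 4.94 times the T and NK level in control replicate 1 and 2.79 to 5.32 times in NASH mice. The part of free RNA in the rise was not tested. In neutrophils, by contrast, the level of control replicate 1 was above all 6 NASH mice, with no test because the other control mouse had too few cells.

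Cfp had smaller fold changes than the C1q chains and stood above T and NK cells in more types. Over all cells it was 28.1 and 44.5 CPM in the control mice, 235, 242 and 152 CPM in HFD+F+CCl4 mice and 226.5, 274 and 377 CPM in WD+F+CCl4 mice. It rose by log2 fold changes of 2.67 ± 0.28 (adjusted p = 0.0017) and 3.23 ± 0.29 (adjusted p = 0.001). Within the MMD system it was 102.4 and 79.9 CPM against 289, 288 and 180.2 CPM and 271, 319 and 489.5 CPM, with log2 fold changes of 1.59 ± 0.31 (adjusted p = 0.011) and 2.15 ± 0.32 (adjusted p = 0.003). Without control replicate 2 the first of these was 1.37 (adjusted p = 0.0871).

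Kupffer cells carried the most Cfp, with 903, 1118 and 969.8 CPM in HFD+F+CCl4 mice and 1359.5 and 1244.5 CPM in WD+F+CCl4 replicates 2 and 3. Macrophages (252 to 512 CPM), DC (183 to 389.8 CPM), cycling MMD cells (233 to 509 CPM) and plasmacytoid DC (164 to 268 CPM) followed with overlapping ranges. All exceeded T and NK cells in every NASH mouse, by 11.2 to 23.5 times in Kupffer cells, 3.6 to 7.07 times in macrophages and 3.31 to 6.05 times in DC. In the control mice Cfp was 13.3 and 2.68 times the T and NK level in macrophages and 9.44 and 2.76 times in DC. In DC, which present antigen to T cells, Cfp was 84.7 and 58.7 CPM in the control mice, 305, 209 and 183 CPM in HFD+F+CCl4 mice and 307, 389.8 and 348 CPM in WD+F+CCl4 mice. It rose there by 1.61 ± 0.24 (adjusted p = 0.0041) and 2.23 ± 0.25 (adjusted p = 0.00071), and both calls held without any 1 mouse. In classical monocytes the log2 fold changes were 0.62 ± 0.23 (adjusted p = 0.14) and 1.17 ± 0.23 (adjusted p = 0.01), the latter with an adjusted p of 0.201 without control replicate 1.

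C3, the central component, was not called over all cells. It was 260.2 and 280.3 CPM in the control mice, 232, 171 and 259 CPM in HFD+F+CCl4 mice and 207, 278 and 227 CPM in WD+F+CCl4 mice, so that all HFD+F+CCl4 mice lay below both controls and the WD+F+CCl4 mice overlapped them. The log2 fold changes were -0.17 ± 0.23 (adjusted p = 0.66) and 0.01 ± 0.23 (adjusted p = 0.99). In the control mice 49.5% and 71.5% of C3 UMIs were in unnamed clusters led by hepatocyte genes, which held 23.8% and 63.8% of the cells of the control mice but 0.0179% to 0.458% of those of NASH mice. Without the unnamed clusters the log2 fold changes were 0.53 and 0.73, and neither was called.

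**Figure D4:**
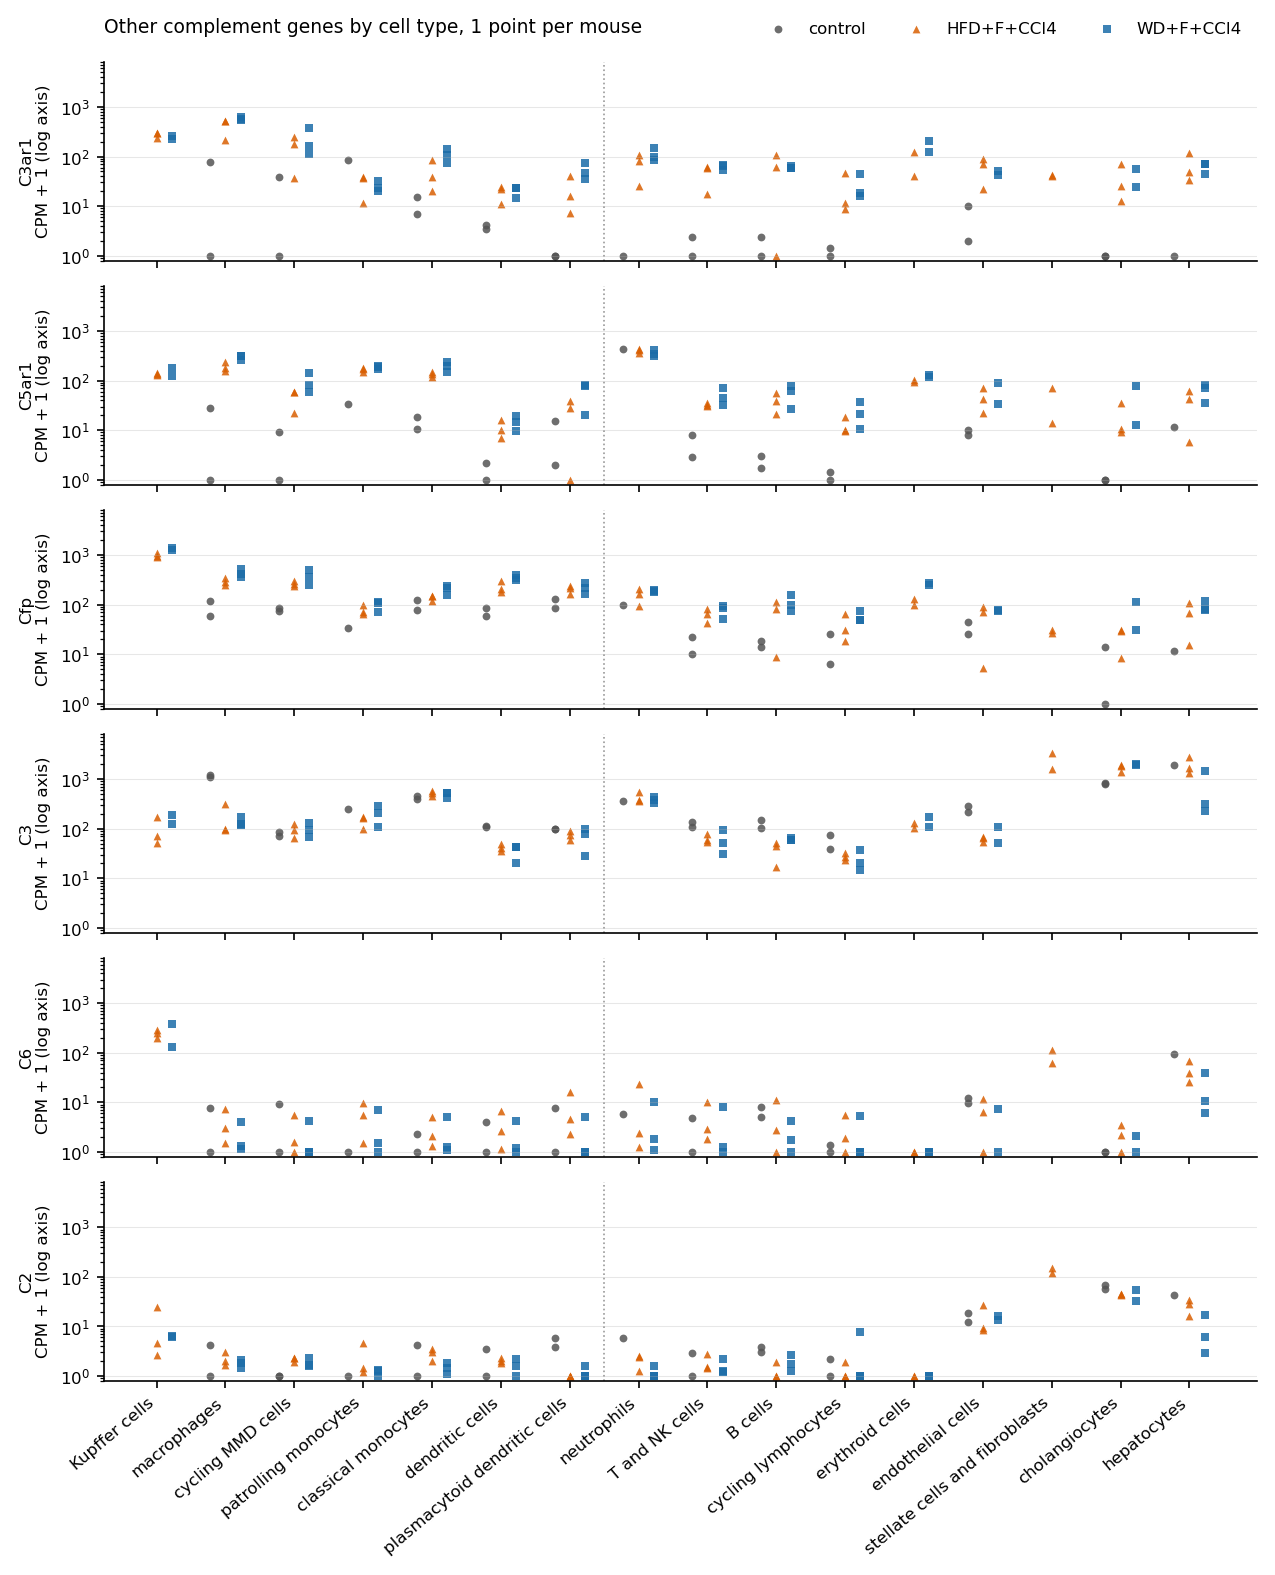
CPM of C3ar1, C5ar1, Cfp, C3, C6 and C2 with 1 CPM added, on a log axis, in each named cell type, with 1 point per mouse that had at least 20 cells of the type. Mean levels of C3 and C2 were highest in stromal and epithelial cells, of C6 in Kupffer cells, of C5ar1 in neutrophils and of C3ar1 in macrophages. For C3, control macrophages (1108 and 1217 CPM) lay above NASH macrophages and above cholangiocytes of the control mice (781 and 840 CPM).

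C3 was high in stellate cells and fibroblasts, the matrix-forming cells, in cholangiocytes and in hepatocytes, with no fixed order between mice. Stellate cells and fibroblasts had 1599 and 3337 CPM in HFD+F+CCl4 replicates 1 and 2, the mice with enough of these cells, below cholangiocytes in the first and above them in the other. Cholangiocytes, which line the bile ducts, had 781 and 839.7 CPM in the control mice, 1905, 1419 and 1812 CPM in HFD+F+CCl4 mice and 1959 and 2059 CPM in WD+F+CCl4 replicates 2 and 3. All 5 NASH mice lay above both controls, with log2 fold changes of 1.21 ± 0.29 (adjusted p = 0.11) and 1.498 ± 0.305 (adjusted p = 0.0503) in a fit without WD+F+CCl4 replicate 1, neither of them called. Hepatocytes ranged from 227 CPM in WD+F+CCl4 replicate 1 to 2808 CPM in HFD+F+CCl4 replicate 3, around 1909 CPM in control replicate 1. Classical monocytes (412 to 570 CPM) and neutrophils (326 to 542 CPM) also stood above T and NK cells of the same NASH mouse, by 5.57 to 13.6 times and 4.74 to 10.7 times.

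In macrophages, C3 ran opposite to C1q. C3 of macrophages was 1108 and 1217 CPM in the control mice, 93.7, 98.6 and 321 CPM in HFD+F+CCl4 mice and 125, 172 and 119 CPM in WD+F+CCl4 mice, and no NASH mouse reached the controls. It fell by 2.50 ± 0.53 (adjusted p = 0.043) and by 2.84 ± 0.53 (adjusted p = 0.024) on the log2 scale. Each of these calls for C3 was lost when 1 mouse was left out, with adjusted p of up to 0.379 and 0.26 without control replicate 1. C1qa of macrophages was 198.5 and 95.1 CPM in the control mice, from 60 and 5 UMIs, and rose by 3.94 ± 0.56 (adjusted p = 0.0081) and 3.66 ± 0.55 (adjusted p = 0.011). C1qb rose by 3.81 ± 0.72 and 3.76 ± 0.72, C1qc by 3.65 ± 0.50 and 3.41 ± 0.49, C3ar1 by 2.90 ± 0.59 and 3.39 ± 0.59, C5ar1 by 3.25 ± 0.50 and 3.86 ± 0.49, and Cfp by 1.63 ± 0.35 and 2.20 ± 0.35. C1qa of T and NK cells moved with that of macrophages, as given above, and its part in these rises was not tested. The median gene tested in macrophages had log2 fold changes of 0.33 and 0.35.

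Thus 6 genes were higher and 1 was lower in macrophages of each model, where 2.26% and 3.66% of all genes tested were called. These counts of 7 rest on both control mice. With either of them left out, 1 control mouse remained and most or all of these calls were lost. Calls over all genes in such fits were not compared, so the loss cannot be read as particular to these genes. Of the control macrophages, 39 of 70 and 16 of 33 were in the cluster led by Il1rn, Gpr84 and Acod1. The mixture also varied between NASH mice. In a finer clustering, a macrophage cluster led by Il1rn held 836 cells of HFD+F+CCl4 replicate 3 and 66 to 184 of each other NASH mouse. That mouse had the highest C3 of NASH macrophages (321 CPM). The part of the mixture in these changes was not tested.

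Within a cluster, the values of control replicate 1, which had 31 cells in the cluster led by Pf4 and 39 in the cluster led by Il1rn, are a description without a test. In the Pf4 cluster C1qa was 523.4 CPM in that mouse against 1055 to 3320 CPM in NASH mice, and C3 was 301.6 CPM against 63.4 to 178 CPM. In the Il1rn cluster C1qa was 5.27 CPM against 700.1 to 1425 CPM, and C3 was 1588 CPM against 205 to 456 CPM. C5ar1 was 44.4 CPM against 159 to 326 CPM in the first and 15.8 CPM against 175 to 271 CPM in the second. In both clusters that mouse was thus below all NASH mice for C1qa and C5ar1 and above all of them for C3.

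C3 was also lower in other types with more control cells. In DC it was 113.5 and 108 CPM in the control mice and between 19.4 and 47.9 CPM in NASH mice, and fell by 1.41 ± 0.29 (adjusted p = 0.021) and by 1.67 ± 0.30 (adjusted p = 0.0068). In B cells it fell by 1.38 ± 0.28 (adjusted p = 0.008) and by 0.92 ± 0.24 (adjusted p = 0.02), and in endothelial cells, where 1.68% and 1.54% of all genes were called in a fit without WD+F+CCl4 replicate 1, by 1.97 ± 0.32 (adjusted p = 0.018) and by 1.86 ± 0.38 (adjusted p = 0.043). None of the 6 calls held without control replicate 1, with adjusted p of 0.129 to 0.457. C3 of DC was below T and NK cells of the same NASH mouse in 6 of 6 mice. In the control mice it was 1.08 and 0.803 times the T and NK level. No C3 expression was read from DC of NASH mice or of control replicate 2, and no fall in expression was read from the calls in DC. In B cells C3 was 0.208 to 2.1 times the T and NK level in NASH mice (1.43 and 0.769 times in the control mice). In endothelial cells it was 0.842 to 1.16 times in NASH mice (2.1 and 2.12 times in the control mice). C3 of T and NK cells fell by 0.82 ± 0.39 (adjusted p = 0.26) and by 0.83 ± 0.39 (adjusted p = 0.2), neither called. The summed level of 6 hepatocyte markers moved with these falls, with 1400 and 1556 CPM in MMD cells of the control mice against 45.6 to 538 CPM in NASH mice, and its part in them was not tested. In classical monocytes C3 was 395 and 462 CPM in the control mice and overlapped the NASH mice.

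C6 was highest in Kupffer cells. It reached 293, 245 and 201 CPM in Kupffer cells of HFD+F+CCl4 mice and 131 and 381 CPM in WD+F+CCl4 replicates 2 and 3, which was 31.8 to 231 times the T and NK level. Stellate cells and fibroblasts had 114 and 60.6 CPM in 2 mice, and hepatocytes, the textbook source, 94.9 CPM in control replicate 1 and between 5.11 and 66.5 CPM in NASH mice. Over all cells C6 was 7.68 and 6.22 CPM in the control mice, 23.8, 9.36 and 1.74 CPM in HFD+F+CCl4 mice and 0.529, 1.05 and 39.7 CPM in WD+F+CCl4 mice. The 2 mice with the most Kupffer cells, WD+F+CCl4 replicate 3 with 661 and HFD+F+CCl4 replicate 1 with 392, had the highest C6. The log2 fold changes of 0.74 ± 1.69 and 1.08 ± 1.71 had wide errors, with adjusted p = 0.8 and 0.7.

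C2 was low throughout, and was highest in stellate cells and fibroblasts (148 and 117 CPM) and in cholangiocytes. Cholangiocytes had 55.3 and 66.3 CPM in the control mice and between 31.7 and 53.8 CPM in NASH mice. Over all cells C2 was 5.08 and 5.28 CPM in the control mice, 8.20, 2.69 and 1.61 CPM in HFD+F+CCl4 mice and 0.753, 1.35 and 4.95 CPM in WD+F+CCl4 mice. The HFD+F+CCl4 mice lay on both sides of the controls and the WD+F+CCl4 mice below them, and the log2 fold changes of -0.27 ± 0.84 and -0.99 ± 0.84 were not called.

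The cell types that held the UMIs of each gene differed. Macrophages were on average 23.2% of cells of NASH mice but held 68.1% of C1qa, 70.2% of C1qb, 66.9% of C1qc and 74.3% of C3ar1 UMIs. They held 47.3% of C5ar1 and 44.0% of Cfp UMIs. Kupffer cells were 1.93% of cells but held 58.9% of C6 UMIs, with a range of 24.2% to 89.3% between mice. The share of C1qa UMIs in macrophages ranged from 51.7% to 78.4%. C3 had no leading type, with 6.74% to 47.5% of its UMIs in classical monocytes, 15.3% to 31.9% in macrophages and 0.186% to 33.4% in cholangiocytes. The type of C5ar1 UMIs also varied, with 4.5% to 26.7% in neutrophils.

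**Figure D5:**
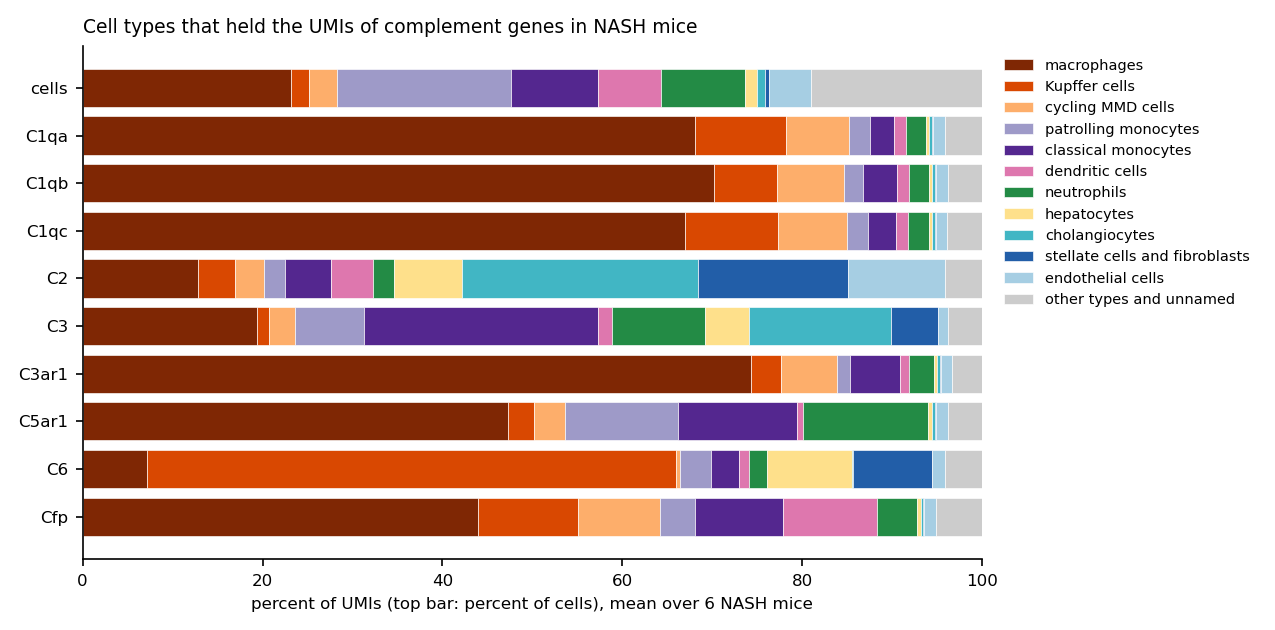
Stacked bars of the mean percent of each gene's UMIs found in each cell type over the 6 NASH mice, with the percent of cells in the top bar. Macrophages held 68.1% of C1qa and 74.3% of C3ar1 UMIs from 23.2% of cells, and Kupffer cells 58.9% of C6 UMIs from 1.93% of cells.

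Over the 10 single types that could be compared with both control mice, 46 of 80 pairs of gene and type were called in HFD+F+CCl4 mice, 42 higher and 4 lower, where 3.32% of all such pairs over all genes were called. In WD+F+CCl4 mice 55 of 80 were called, 51 higher and 4 lower, where 5.82% of all pairs were called. The rises were not particular to myeloid cells. In T and NK cells C1qa rose by 5.16 ± 0.68 (adjusted p = 0.0034) and 4.94 ± 0.68 (adjusted p = 0.0027), and 6 genes were called in each model against 5.78% and 9.13% of all genes. In B cells 7 genes were called in each model, against 6.36% and 11.8% of all genes, and the log2 fold changes of the C1q chains were 5.66 to 6.87. None of these calls in T and NK cells held without control replicate 1, a fit with 1 control mouse in which calls over all genes were not compared. Neither type is a known source of C1q. The part of free RNA in the rise of any single type was not tested.

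In the remaining MMD types, 4 and 6 genes were called in classical monocytes, where 5.46% and 8.68% of all genes were called, 6 and 7 in DC, where 4.58% and 9.95% were called, and 4 and 6 in plasmacytoid DC, where 3.92% and 8.16% were called. C1qa of these types did not exceed T and NK cells of the same NASH mouse, so no change in expression was read from its calls there, and their source was not tested. C5ar1 in classical monocytes and Cfp in DC exceeded them in every NASH mouse. Without control replicate 1, which leaves 1 control mouse, fewer pairs were called over the 10 types, and calls over all genes were not compared.

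No difference between the models was called for these genes. In WD+F+CCl4 against HFD+F+CCl4 mice edgeR called 0 of 9 genes over all cells and within the MMD system, where 0% of all genes were called, and DESeq2 called 0 of the 9 as well. At an unadjusted p under 0.05, 2 of the 9 passed over all cells, where 3.88% of all genes did, and 1 within the MMD system, where 6.26% did. The log2 difference in the MMD system was 0.57 ± 0.15 (adjusted p = 0.56) for C5ar1, with all WD+F+CCl4 mice above all HFD+F+CCl4 mice, and 0.56 ± 0.26 for Cfp. Over 15 single types 0 of 118 pairs were called by either tool, where edgeR called 0.0162% of all pairs over all genes. At an unadjusted p under 0.05, 17 of the 118 passed, as did 5.28% of all pairs over all genes.

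The shares of cells with at least 1 UMI were also higher in NASH mice for the C1q chains, C3ar1, C5ar1 and Cfp. None of the 9 genes passed the threshold after adjustment. With all cells thinned to 500 UMIs, C1qb was found in a mean of 23.5% of cells of NASH mice and 0.581% of control cells (two-sided exact permutation test, p = 0.0357, and 0.0643 when adjusted over the 9 genes). The smallest p that the 28 regroupings of 2 and 6 mice allow is 0.0357. C1qa was found in 19.9% and 0.587% of cells (exact permutation p = 0.0714), C3ar1 in 6.46% and 0.108%, C5ar1 in 7.30% and 0.530%, and Cfp in 8.71% and 1.70% of cells. Unthinned, C1qa was found in 1.46% and 1.32% of control cells and in 19.4% to 70.6% of cells of NASH mice. C3 was found in fewer cells of NASH mice, 8.44% against 13.3% (exact permutation p = 0.0357). Between the models the exact permutation p ranged from 0.3 to 1, where 20 regroupings allow no less than 0.1.

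The rest of the pathway moved in both directions. Of the 46 further genes 40 were tested within the MMD system, 4 of them higher and 5 lower in HFD+F+CCl4 mice, with a median log2 fold change of -0.57, and 6 higher and 15 lower in WD+F+CCl4 mice, with a median of -1.07. Among all genes tested there, 16.8% and 21.6% were called in either direction in these comparisons. The medians over all genes were 0.08 and 0.07. Receptors and binding proteins held most of the rises, 4 and 5 of 11 tested, and 1 of 11 fell in each model. C5ar2, the second receptor of C5a, was 3.98 and 4.81 CPM in the control mice and between 8.53 and 27.2 CPM in NASH mice, and rose by 2.22 ± 0.48 (adjusted p = 0.016) in HFD+F+CCl4 mice and by 2.58 ± 0.48 in WD+F+CCl4 mice. Lrp1, an endocytic receptor, was 163.6 and 155 CPM in the control mice and between 433 and 728 CPM in NASH mice, and rose by 2.07 ± 0.22 and 2.33 ± 0.23. Itgax, the alpha chain of complement receptor 4, rose by 1.31 ± 0.37 in HFD+F+CCl4 mice. Fcnb, a ficolin of myeloid cells, rose by 3.46 ± 0.96 in WD+F+CCl4 mice.

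The falls lay mainly among genes of the terminal pathway, with 3 and 5 of 5 tested lower, and in WD+F+CCl4 mice also among activators (5 of 12) and soluble regulators (4 of 6). In HFD+F+CCl4 mice the largest falls were by 3.87 ± 0.61 in Cr2, a complement receptor of B cells, by 2.64 ± 0.46 in C8g and by 2.47 ± 0.60 in C8a. In WD+F+CCl4 mice they were by 6.54 ± 1.22 in C8b, by 5.23 ± 0.81 in the lectin Mbl2 and by 5.11 ± 0.80 in the regulator Vtn. C8a, C8b, C8g, Mbl2 and Vtn are known from hepatocytes, and the hepatocyte markers in MMD cells, given above for C3, moved with them. Its part in these falls was not tested. In macrophages alone 37 of the 46 were tested, of which 1 was higher and 0 were lower in HFD+F+CCl4 mice, and 1 was higher and 3 were lower in WD+F+CCl4 mice, where 2.26% and 3.66% of all genes were called.

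Across the 16 types, the pattern of the C1q chains was most like that of macrophage genes. The likeness is Pearson's r of log2(CPM + 1) over the mean levels of 16 types among 11603 genes, where types share libraries and genes are not independent. The means are over the mice with enough cells, which were NASH mice alone for Kupffer cells (5 mice), erythroid cells (4 mice) and stellate cells and fibroblasts (2 mice), so the pattern also carries which mice entered a type. The C1q chains correlated with each other at 0.986 to 0.996. Outside the 9 genes, C1qa was nearest to Atp6v0d2 (0.974), Ms4a7 (0.961) and Slc7a8 (0.957), and the same 3 genes were nearest to C1qb and C1qc, with 0.953 to 0.979. C3ar1 was nearest to Trem2 (0.980), Gpnmb (0.960) and Ms4a7 (0.958), of which Trem2 and Gpnmb are known markers of lipid-associated macrophages. Here the mean level of Trem2 was highest in Kupffer cells (522.6 CPM) and that of Gpnmb in macrophages (867.6 CPM). Among the 9 genes C1qb and C3ar1 correlated at 0.960.

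The other genes had neighbours of their own. C5ar1 was nearest to Gm5150 (0.950), Pla2g7 (0.945) and Slc11a1 (0.939), and Cfp to Tmem268 (0.929), Kcnk13 (0.908) and Aif1 (0.903). C6 was nearest to Fcna (0.914), Pcolce2 (0.907) and C4b (0.876), of which Fcna and C4b are complement genes. C3 was nearest to Rhou (0.961), Selenbp1 (0.908) and Dstn (0.874), and C2 to Klhdc8b (0.962), Copz2 (0.962) and P4ha2 (0.961). C2 and C3 correlated at 0.732.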

How the data were processed

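Cells from the livers of 8 mice (2 control mice and 3 of each model) were measured. The authors deposited whole UMI counts, which Cell Ranger had produced against GRCm38, and barcodes of poor quality had not yet been removed. Neither the annotation release nor any removal of doublets or free RNA is given in the sources used here. Barcodes needed more than 500 genes and a mitochondrial share under 25%. Cells were clustered with scanpy 1.11.5 (2000 variable genes without the 9 complement genes and the 46 further ones, 30 principal components, 20 neighbours, leidenalg 0.10.2) and clusters were named from marker lists. The 7452 cells of highest doublet score stayed in. For each type, summed UMIs were tested by the quasi-likelihood method of edgeR 4.0.16 in R 4.3.3 with limma 3.58.1. The fit used TMM scaling, genes passing filterByExpr at a minimum count of 10, all mice with at least 20 cells and Benjamini-Hochberg adjustment over all genes tested, with a threshold of 0.05. DESeq2 1.42.0 was an alternative. Shares were compared with exact permutation tests over mice (SciPy 1.17.1), in Python 3.11.15 with numpy 2.4.6.

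The complement genes, the marker lists and the further genes were chosen with earlier results of these data known. The 9 genes were always named. Of the further genes, the 3 largest rises and the 3 largest falls among those called in MMD cells were named, and for each of the 9 the 3 genes of most similar pattern among those with at least 20 CPM in 1 type. Library totals ran from 6135827 to 64855024 UMIs, and limits taken from 3 UMIs cover counting error only. On simulated counts, changes of 4 on the log2 scale were recovered in HFD+F+CCl4 against control in 70.5% of 61 genes over all cells (19332 genes) and in 87.0% of 54 genes within the MMD system (17131 genes), changes of 2 in 32% of 50 and 47.8% of 67, and changes of 1 in 0 of 77 and 10.8% of 65. The alternatives were other filters on cells and genes, scaling, tools, clustering, naming, a replicate block and leaving out mice or clusters.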

Additional observations from a re-analysis of the deposited data

How the results depend on the processing

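Over all cells and in MMD cells the counts of genes called (6, 6 and 0) were the same under the alternatives, except in HFD+F+CCl4 against control in MMD cells, with 7 without HFD+F+CCl4 replicate 3, where C3 was called, and 5 without control replicate 2, where Cfp was lost. Of the 46 pairs of gene and type called in HFD+F+CCl4 mice, 29 remained as a count with more than 1000 genes per cell, where 6 types could be tested, and leaving out 1 mouse gave 10 to 51. Of the 55 in WD+F+CCl4 mice, the count was 32 with more than 1000 genes per cell and 15 to 57 with 1 mouse left out. Between the models, 0 pairs became 12 with no filter on low counts and 1 with the replicate block, and 0 to 5 with 1 mouse left out. C1qc in erythroid cells, tested in 2 mice of each model, was 0.66 between the models with all mice, 1.52 without WD+F+CCl4 replicate 2, and -2.34 when WD+F+CCl4 replicate 3 was left out. Without the 2 stress-led clusters, the 7 calls in macrophages of each model were the same in number. The cause of these shifts was not tested, beyond the smaller number of cells and types.

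Replicate numbers did not pair the mice, since 0 of 7 pairs correlated over 0.1 (-0.651 to 0.0917 over all cells). With the numbers as a replicate block, 6, 6 and 0 genes were called over all cells and in MMD cells, and 43, 45 and 1 pairs. With 2 control mice, few control macrophages and a shallow second control library, changes within single types are the least certain values.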

Other observations

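Within the MMD system, 3 further complement genes, named here after their values were seen, were highest in the 3 NASH mice with the most Kupffer cells. Vsig4, a complement receptor of Kupffer cells, was 255 CPM in WD+F+CCl4 replicate 3 (661 Kupffer cells), 129.8 CPM in HFD+F+CCl4 replicate 1 (392 cells) and 63.3 CPM in HFD+F+CCl4 replicate 2 (188 cells), but at most 4.80 CPM in the other NASH mice, against 5.14 and 0.963 CPM in the control mice. Fcna, a ficolin of the lectin pathway, was 85.8, 25.6 and 16.9 CPM in the first 3 mice and at most 4.15 CPM in the others. C4b, which binds C2 in the classical convertase, was 81.3, 61.3 and 34.2 CPM in these mice and 8.77 to 19.8 CPM in the others. None of the 3 genes was called by edgeR against control in either model.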
